A study of Mus musculus with 35 samples.

Results

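The astrocyte identity genes examined here are 35 genes known as enriched in astrocytes, chosen by symbol from the 35976 gene symbols of the count tables and listed in each of the 35 libraries. They leave out the glutamate and glycine transporters except Slc25a18, a mitochondrial glutamate carrier. Potassium channels, connexins and genes of the reactive state are also left out. The groups left out are the usual readouts of astrocyte function or injury. All 35 genes had enough counts to be tested in every comparison. The rule names genes by symbol and uses no measured value, although it was chosen with earlier results of these data known.

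Astrocytes are the glial cells that tile the brain and spinal cord, ensheath synapses and vessels, buffer ions and transmitters, and supply neurons with metabolites. Their identity is set in development by factors such as SOX9 and is then carried by a broad program of metabolic enzymes, membrane receptors, carriers and secreted proteins. In the medulla and cervical spinal cord they surround the motor neurons of the tongue and diaphragm and take part in the control of breathing.

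The study asked how expanded ataxin-7 changes gene expression in tissues that hold respiratory motor neurons. Spinocerebellar ataxia type 7 (SCA7) is a polyglutamine disease, and the SCA7 266Q/5Q knock-in mouse carries 1 Atxn7 allele with a very long CAG repeat and 1 with a short repeat in every cell. RNA-seq of whole tissue was made from SCA7 mice and WT mice of the C57Bl/6J strain, 18 mice in all. At 9 weeks, 5 SCA7 and 5 WT mice each gave a medulla and a cervical spinal cord library. The 5-week animals, 2 a genotype, were likewise sampled in both tissues. At postnatal day 8 (P8) the labels give 2 SCA7 and 2 WT medulla libraries, 2 SCA7 cervical libraries and 1 WT cervical library. Animal numbers in the labels tie both tissues to a mouse, and each library stands for 1 mouse.

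Sequencing depth fell into 2 classes that shape every value below. In 15 deep libraries the total was 28969003 to 99353286 counts, and in 20 shallow libraries it was 95917 to 396417 counts. At 9 weeks depth was balanced, with 2 deep and 3 shallow libraries in every group. Within a mouse it was not always so. WT replicate 1 had a deep cord and a shallow medulla library, and WT replicate 2 the reverse. Comparisons of tissues within those mice therefore also set unlike depths side by side. Both 5-week WT medulla libraries were deep and both 5-week SCA7 medulla libraries were shallow, so depth and genotype cannot be told apart in that comparison. Both 5-week SCA7 cord libraries were shallow, beside 1 deep and 1 shallow WT library, and both SCA7 libraries labelled P8 cervical were shallow, beside 1 deep WT library. Of the libraries labelled P8 medulla, both WT ones were deep and 1 of the 2 SCA7 ones was shallow. Levels of the rarer members in shallow libraries rest on a few counts each. Medulla SCA7 replicate 2 at 9 weeks stood apart, with 59% of its counts from mitochondrial genes against 11.3 to 34.9% in the other shallow libraries. All 21 pairs of replicates differed by more than counting noise. Atxn7, altered but not deleted in this line and so a weak check of genotype, was 30.0 to 34.3 CPM (counts per 1000000 counts, scaled by edgeR's TMM factors) in the deep 9-week WT libraries and 41.1 to 56.2 in the deep SCA7 libraries.

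The P8 tissue labels went against regional genes, which were chosen after their values were seen. Hoxc8, a homeobox gene of the spinal cord, was 0 to 0.0480 CPM in the 14 medulla libraries of 5 and 9 weeks and 9.47 to 191 CPM in the 14 cord libraries. It was 65.8 to 172 CPM in the 4 libraries labelled P8 medulla and 0 to 0.0219 CPM in the 3 labelled P8 cervical. Tph2, the serotonin synthesis enzyme of raphe neurons in the brainstem, ranged from 0 to 128 CPM in the 14 medulla libraries of 5 and 9 weeks, with a median of 27.3 CPM, and from 0 to 1.38 CPM in the 14 cord libraries, so it overlapped between tissues. It was 0 to 0.429 CPM in the libraries labelled P8 medulla and 0, 5.99 and 20.98 CPM in those labelled P8 cervical. The libraries are therefore called by their labels below, no library was regrouped, and each comparison of P8 with 9 weeks is given against both 9-week tissues.

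**Figure D1:**
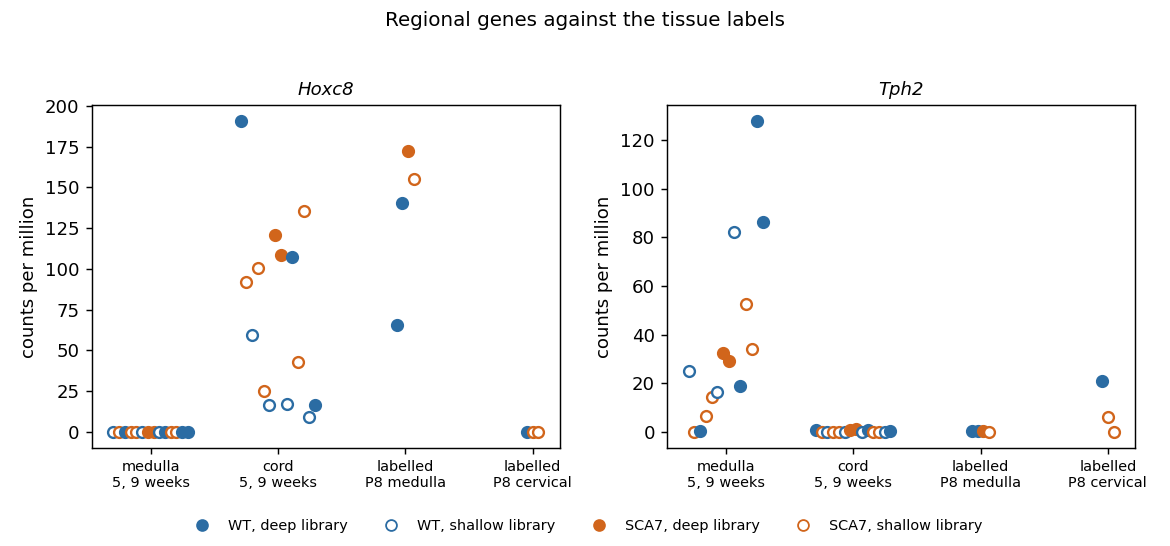
Levels of regional genes in CPM (vertical axis) in every library, by labelled tissue and age (horizontal axis), with filled points for deep and open points for shallow libraries and blue for WT and orange for SCA7. Hoxc8 lay at 65.8 to 172 CPM in the libraries labelled P8 medulla and at 0 to 0.0219 CPM in those labelled P8 cervical, the reverse of the 5- and 9-week libraries.

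At 9 weeks the summed level of the 35 genes was lower in every SCA7 library than in any WT library of the same tissue. In medulla the sums of replicates 1 to 5 were 9385, 10170, 9518, 8948 and 9952 CPM in WT mice and 6000, 7100, 5513, 5953 and 5944 CPM in SCA7 mice. In cervical cord they were 13830, 10560, 10810, 9293 and 11540 CPM in WT mice and 7116, 6590, 5873, 6893 and 6811 CPM in SCA7 mice. The groups did not overlap in either tissue, in deep or in shallow libraries. The share of counts from mitochondrial genes, a sign of RNA quality, moved with genotype in part. In the shallow cord libraries it was 21, 24.3 and 34.9% in WT mice and 15.6, 13.9 and 15.6% in SCA7 mice, and in the deep ones 12 and 4.65% against 4.41 and 4.02%. In the shallow medulla libraries it was 20, 19.8 and 18.8% in WT mice and 14, 59 and 15.1% in SCA7 mice. In the deep medulla libraries the share was 3.53 and 3.97% in WT mice against 3.48 and 3.73% in SCA7 mice, and the sums there were 10170 and 9952 CPM against 5953 and 5944 CPM. The part of the mitochondrial share in the cord values was not tested. In bulk tissue, fewer cells of a type and less RNA per cell cannot be told apart.

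**Figure D2:**
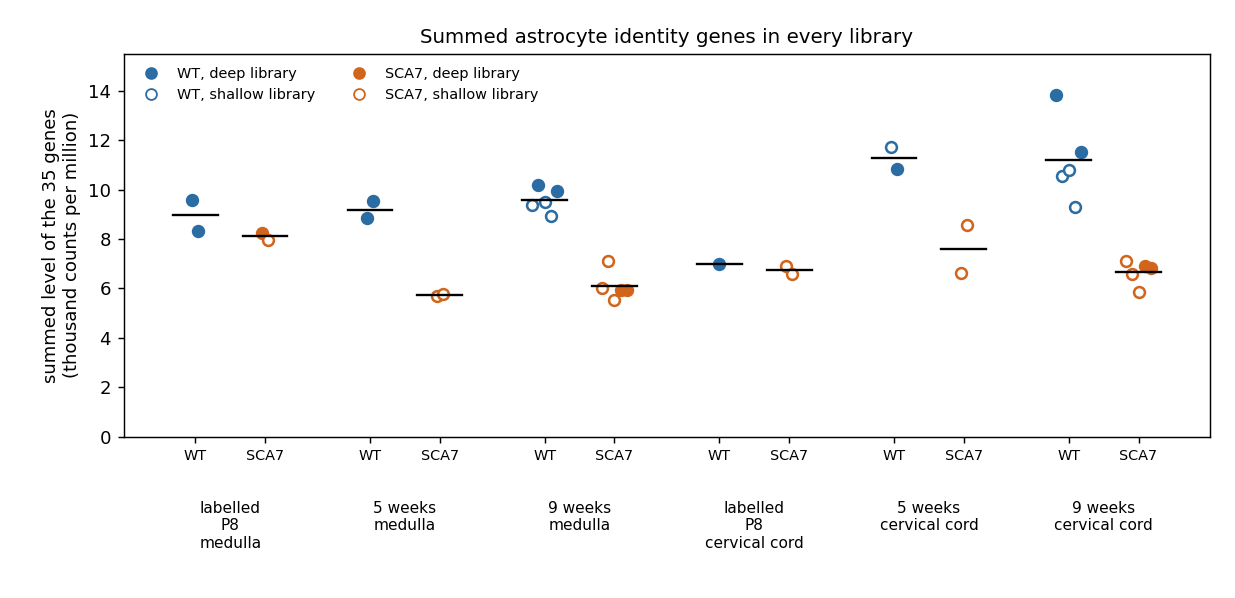
Summed level of the 35 genes in CPM divided by 1000 (vertical axis) in every library by group (horizontal axis), blue for WT, orange for SCA7, filled for deep and open for shallow libraries. At 9 weeks the SCA7 libraries lay at 5513 to 7116 CPM and the WT libraries at 8948 to 13830 CPM.

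Tested one by one with the quasi-likelihood test of edgeR (Benjamini-Hochberg adjusted p under 0.05 over all genes), 13 of the 35 genes were lower in SCA7 medulla and none was higher, where 2.41% of the 19157 genes tested were lower and 4.56% higher. In cervical cord 10 of the 35 were lower and none was higher, where 3.54% of all 19263 genes were lower and 1.52% higher. Among genes that average at least 10 CPM over all libraries, closer to the members in level, 1.66% were lower in medulla and 2% in cord. Of the genes with at least 10 counts on average in the shallow libraries, 7 of 16 members had every SCA7 library below every WT one in medulla, beside 3.72% of 2421 genes, and 6 of 17 members in cord, beside 3.94% of 2411 genes. The median log2 fold change of the 35 genes was -0.78 in medulla, with 33 of 35 below 0, beside a median of 0.08 over all genes. In cord the median was -0.82, with 34 of 35 below 0, beside -0.02 over all genes. The 9 genes called lower in both tissues were Aldoc, Ndrg2, Agt, Ttyh1, Ntsr2, Btbd17, Gpr37l1, Entpd2 and Itih3. Slc14a1, Fabp7, Sparcl1 and Mfge8 passed the test in medulla alone and Id3 in cord alone, but no difference between tissues was called for them. Both tissues came from the same mice and are not independent.

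These counts depended on single libraries, whereas the sign of the median was the same in each of these fits. In medulla, without SCA7 replicate 2, the library rich in mitochondrial counts, 23 members were lower, where 3.4% of all genes were. Without a deep library the medulla count fell to 6 (without WT replicate 2, where 0.99% of all genes were lower), 6 (without WT replicate 5, 1.21%), 7 (without SCA7 replicate 4, 1.41%) or 5 (without SCA7 replicate 5, 0.666%). In cord it fell to 5 without SCA7 replicate 4 (1.54% of all genes) and to 4 without SCA7 replicate 5 (0.957%), whereas it was 10 without WT replicate 1 (4.79%) and 13 without WT replicate 5 (9.14%). The share of all genes called thus moved with the member count. Over the leave-one-out fits the median of the members ran from -0.80 to -0.71 in medulla and from -0.95 to -0.66 in cord. The 4 deep medulla libraries alone called 32 of the 35 lower, where 8.88% of all genes were lower. The 4 deep cord libraries alone called no gene at all in the lower direction with edgeR, although 2978 of 19218 genes had an unadjusted p under 0.05. The 3 shallow libraries a group alone called 0 of the 21 members they could test in medulla (edgeR, 0.0457% of all genes) and 2 in cord (1.19%). With depth as a covariate 30 members were called in medulla (5.37% of all genes) and 17 in cord (3.92%), and DESeq2 called 7 (0.722%) and 9 (1.39%). In cord 8 were called without SCA7 replicate 2 (2.81%). Ndrg2, Agt, Ttyh1, Gpr37l1 and Itih3 were called in medulla whichever library was left out, and Ndrg2, Agt, Ntsr2 and Btbd17 in cord.

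**Figure D3:**
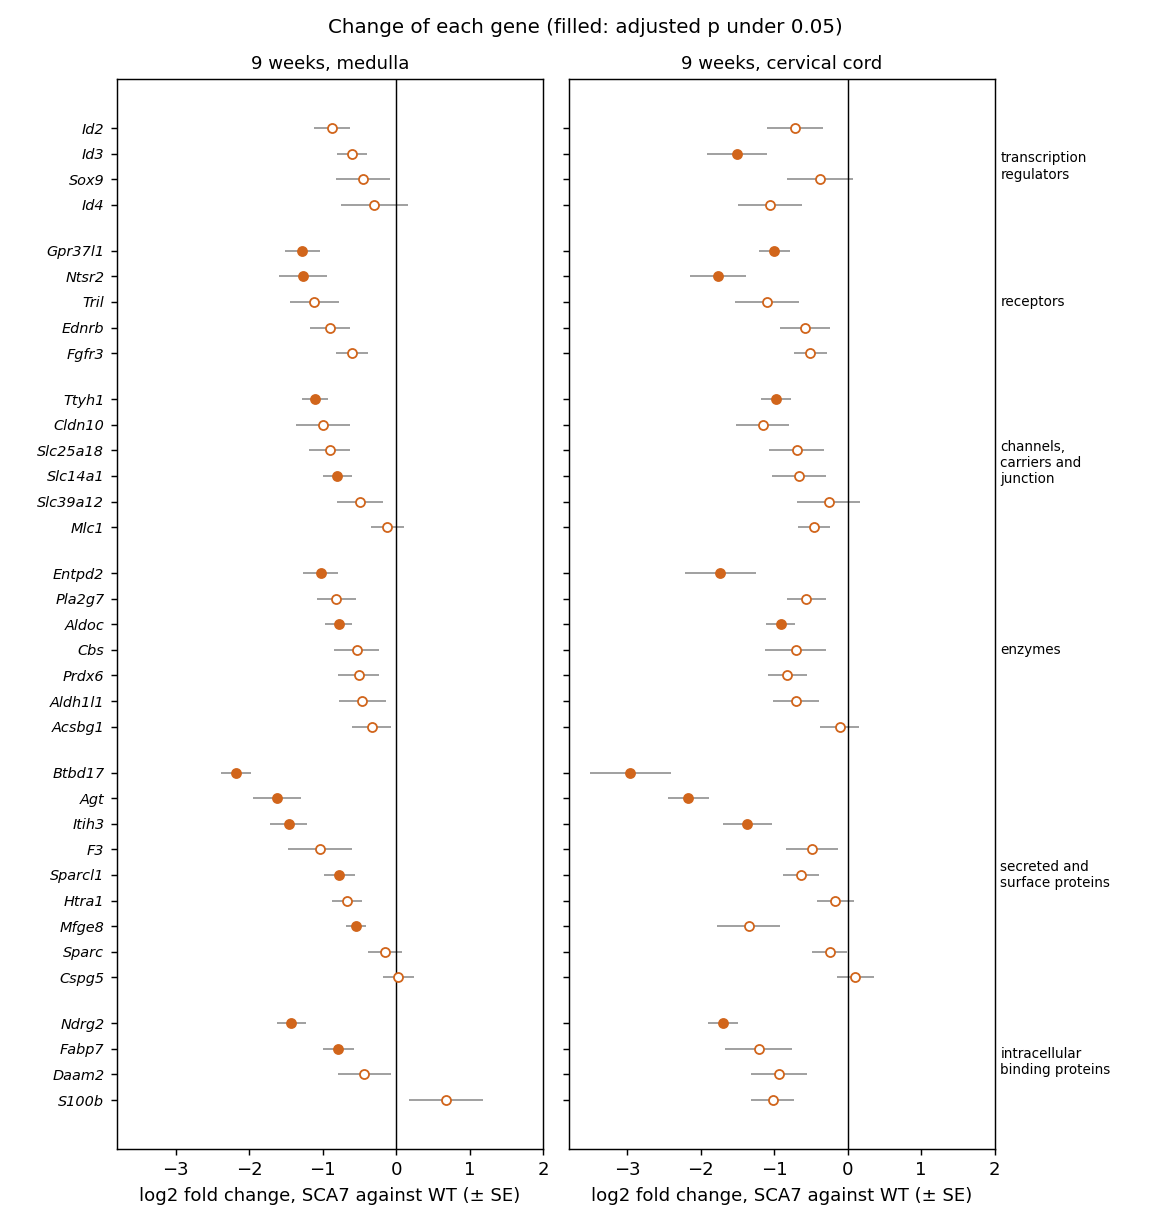
Log2 fold change of SCA7 against WT at 9 weeks (horizontal axis, bars are standard errors) for each of the 35 genes (vertical axis, grouped by role) in medulla (left) and cervical cord (right), with filled points for adjusted p under 0.05. Of the 35 genes, 33 lay below 0 in medulla and 34 in cord, from -2.18 for Btbd17 to 0.68 for S100b in medulla and from -2.96 for Btbd17 to 0.10 for Cspg5 in cord.

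Of the 4 intracellular binding proteins 2 were lower in medulla and 1 in cord, with medians of -0.61 and -1.12. Ndrg2, a protein of the N-myc downstream regulated family that is abundant in astrocytes, was called in both tissues. In replicates 1 to 5 its level was 631, 833, 1094, 913 and 877 CPM in WT medulla and 302, 409, 269, 309 and 293 CPM in SCA7 medulla. The cord libraries held 1334, 866, 993, 1153 and 893 CPM in WT mice and 353, 323, 326, 322 and 314 CPM in SCA7 mice. No SCA7 library reached the lowest WT library, and the SCA7 cord libraries lay within a narrow band. The log2 fold change was -1.43 ± 0.20 (SE; edgeR adjusted p = 0.000785) in medulla and -1.70 ± 0.20 (adjusted p = 0.000313) in cord.

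S100b, a calcium-binding protein made by astrocytes but also by oligodendrocyte and Schwann lineages, did not pass the test in either tissue. Its WT medulla levels were 471, 392, 457, 296 and 392 CPM and its SCA7 medulla levels 318, 1892, 291, 306 and 328 CPM. The 1892 CPM belonged to SCA7 replicate 2, and the other 4 SCA7 libraries lay within or just below the WT range. The log2 fold change in medulla was 0.68 ± 0.50 (edgeR adjusted p = 0.52), it was -0.38 without that library, and in the deep libraries alone it was -0.33 (adjusted p = 0.0282). In cord S100b was 2236, 657, 726, 843 and 771 CPM in WT mice and 468, 517, 482, 570 and 546 CPM in SCA7 mice. All SCA7 cord libraries were below all WT libraries, WT replicate 1 was far above the rest, and the change was -1.02 ± 0.29 (edgeR adjusted p = 0.0550), or -0.58 without WT replicate 1. The Schwann markers summed to 26.8 CPM in medulla SCA7 replicate 2 and 64.6 CPM in cord WT replicate 1, both within the range of the other 9-week libraries. The oligodendrocyte markers summed to 37670 CPM in medulla SCA7 replicate 2, beside 10380 to 19770 CPM in the other 4 SCA7 medulla libraries. Among SCA7 medulla libraries they were thus highest in the same library as S100b. In WT medulla, with S100b at 296 to 471 CPM, they summed to 19750 to 45690 CPM. In cord WT replicate 1 they summed to 81420 CPM, within the 34790 to 107600 CPM of the other WT cord libraries. Their part in the S100b values was not tested. Fabp7, the brain lipid-binding protein of radial glia and young astrocytes, fell in medulla by 0.79 ± 0.21 on the log2 scale (edgeR adjusted p = 0.0370) and had a change of -1.21 in cord (adjusted p = 0.17). It averaged only 1.17 counts in the shallow 9-week WT libraries of both tissues. Daam2, a formin linked to Wnt signalling, had changes of -0.43 and -0.93 and did not pass.

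Among the secreted and surface proteins 5 of 9 were lower in medulla and 3 of 9 in cord, with medians of -0.77 and -0.64. Agt encodes angiotensinogen, the precursor of the angiotensins, which astrocytes make in the brain. It was 118, 167, 73.5, 123 and 186 CPM in WT medulla and 16.8, 87.2, 29.1, 46.9 and 42.1 CPM in SCA7 medulla. Its cord levels were 367, 189, 184, 189 and 255 CPM in WT mice and 23.0, 43.1, 37.6, 71.4 and 69.2 CPM in SCA7 mice. Only SCA7 replicate 2 overlapped the WT range in medulla, and in cord the highest SCA7 library was far below the lowest WT library. Agt fell by 1.62 ± 0.33 on the log2 scale in medulla (edgeR adjusted p = 0.00850) and by 2.17 ± 0.28 in cord (adjusted p = 0.000480).

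Itih3, a heavy chain of the inter-alpha-trypsin inhibitor that binds hyaluronan, was 92.6, 119, 114, 181 and 149 CPM in WT medulla and 41.9, 67.1, 29.1, 54.3 and 40.7 CPM in SCA7 medulla. In cord it was 204, 129, 100.1, 103 and 215 CPM in WT mice and 53.7, 100.6, 12.5, 68.2 and 67.6 CPM in SCA7 mice. The medulla groups were separate, while in cord SCA7 replicate 2 just reached the lowest WT library. The changes were -1.46 ± 0.26 (edgeR adjusted p = 0.00370) and -1.37 ± 0.34 (adjusted p = 0.0272). Btbd17, a BTB domain protein, had the largest fitted changes of the 35, -2.18 ± 0.21 in medulla (edgeR adjusted p = 6.73e-05) and -2.96 ± 0.55 in cord (adjusted p = 0.00534). Its shallow libraries averaged only 2.17 and 0.667 counts, so those values rest mainly on the deep libraries, which held 27.5 and 25.5 CPM in WT medulla against 5.41 and 6.22 CPM in SCA7 medulla.

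Sparcl1, also named hevin, is secreted by astrocytes and promotes synapse formation, and per kilobase of exon it had the highest level of the 35 in both WT tissues (827 CPM per kilobase in medulla and 798 in cord). Its medulla levels were 2684.99, 2772, 2171, 2097 and 2414 CPM in WT mice and 1458, 812, 1544, 1575 and 1615 CPM in SCA7 mice. The cord levels were 2036, 2689, 3036, 1239 and 2715.3 CPM in WT mice and 1558, 1329, 1334, 1669 and 1732 CPM in SCA7 mice. The medulla groups were separate, and in cord WT replicate 4 lay below every SCA7 library. The change was -0.77 ± 0.21 in medulla (edgeR adjusted p = 0.0382) and -0.64 ± 0.24 in cord (adjusted p = 0.17). Sparc, the related matricellular protein that opposes hevin at synapses, had changes of -0.15 and -0.25, and neither passed.

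Htra1, a secreted serine protease, was 177, 195, 278, 173 and 191 CPM in WT medulla and 142, 93.9, 146, 123 and 121 CPM in SCA7 medulla. The corresponding cord levels were 186, 139, 225, 120 and 269 CPM in WT mice and 246, 158, 182, 159 and 133 CPM in SCA7 mice. The groups were separate in medulla and overlapped fully in cord. Neither change passed the test, at -0.67 ± 0.21 (edgeR adjusted p = 0.0731) in medulla and -0.17 ± 0.25 (adjusted p = 0.82) in cord. Mfge8, the milk fat globule protein that links dying cells to phagocytes, fell in medulla by 0.54 ± 0.14 on the log2 scale (edgeR adjusted p = 0.0278) and had a change of -1.35 in cord (adjusted p = 0.0898). It averaged only 2.67 counts in the shallow 9-week WT medulla libraries. F3, the tissue factor that starts blood clotting, had changes of -1.04 and -0.48. Cspg5, the proteoglycan neuroglycan C, had values near 0, at 0.03 and 0.10. Neither F3 nor Cspg5 passed the test in a tissue.

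Of the 9 genes called lower in both tissues, the promoters of 4 are shown. They are the 3 whose windows hold the exact letters TATAAA on either strand, and that of Btbd17, which had the largest fitted changes. Promoter windows of 250 bases before to 50 from the transcription start were taken from RefSeq (GRCm38.p6), where 30 of the 35 genes have an entry, all but Sox9, Sparcl1, Slc14a1, Prdx6 and Cspg5. The genes lie at chr8:124556587-124569706 (Agt), chr14:51905271-51914004 (Ndrg2), chr14:30908572-30923787 (Itih3) and chr11:114790669-114801916 (Btbd17). All 4 are on the minus strand, and the windows span the bases before an annotated start and the first transcribed bases, at chr8:124569657-124569956, chr14:51913955-51914254, chr14:30923538-30923837 and chr11:114795843-114796142 in the same order. Ndrg2 has several annotated starts, of which 1 is shown. The Btbd17 window surrounds the 1 start given for it, which lies inside the interval of the gene rather than at its outer end. Capitals mark, on either strand, a TATA box (TATAAA), a SOX motif (ACAAT) or a CCAAT box (CCAAT), and no marked matches overlap. Only these exact letters were searched, so the letters tatataag in the Btbd17 window are left unmarked.
Agt: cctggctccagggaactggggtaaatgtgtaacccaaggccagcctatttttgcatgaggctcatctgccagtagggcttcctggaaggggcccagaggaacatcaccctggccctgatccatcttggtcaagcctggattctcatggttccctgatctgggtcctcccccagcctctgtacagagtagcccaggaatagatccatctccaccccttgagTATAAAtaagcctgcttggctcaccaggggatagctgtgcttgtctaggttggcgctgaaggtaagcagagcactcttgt
Ndrg2: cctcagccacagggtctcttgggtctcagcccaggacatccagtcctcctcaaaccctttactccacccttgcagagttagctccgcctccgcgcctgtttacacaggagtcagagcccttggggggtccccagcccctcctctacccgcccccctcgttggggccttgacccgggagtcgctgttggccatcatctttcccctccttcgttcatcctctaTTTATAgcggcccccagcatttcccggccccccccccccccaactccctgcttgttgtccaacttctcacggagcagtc
Itih3: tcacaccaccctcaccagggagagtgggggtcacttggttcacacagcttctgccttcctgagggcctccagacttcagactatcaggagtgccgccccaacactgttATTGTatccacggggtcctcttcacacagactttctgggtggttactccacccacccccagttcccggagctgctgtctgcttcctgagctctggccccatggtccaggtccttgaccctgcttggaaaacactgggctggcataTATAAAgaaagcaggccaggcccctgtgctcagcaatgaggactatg
Btbd17: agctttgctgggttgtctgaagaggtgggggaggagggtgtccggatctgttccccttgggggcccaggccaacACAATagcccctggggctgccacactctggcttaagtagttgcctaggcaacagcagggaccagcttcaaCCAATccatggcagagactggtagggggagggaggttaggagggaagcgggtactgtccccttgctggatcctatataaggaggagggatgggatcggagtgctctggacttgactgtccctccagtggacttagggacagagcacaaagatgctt

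In Agt the TATA box began 30 bases and in Ndrg2 29 bases before the start. The Agt match reads TATAAA in the printed direction, while that of Ndrg2 reads TTTATA, with TATAAA on the opposite strand. In Itih3 the TATA box began at base 4 after the annotated start, with a SOX motif 142 bases before that start. Btbd17 held a SOX motif 176 bases and a CCAAT box 106 bases before the start. Of the 9 genes called lower in both tissues, 3 held a TATA box, as did 15.7% of all 27025 genes with a promoter entry, and 3 held the SOX motif, as did 34.4%. CCAAT boxes were found in 3 of the 9 and in 41.1% of all genes. Other motifs searched on both strands, left in lower case above, were the E-box (CANNTG), in 8 of the 9 and 75% of all genes, the GC box (GGGCGG), in 5 of the 9 and 38.2%, and the STAT motif (TTCNNNGAA), in 3 of the 9 and 9.55%. Over all 30 members with an entry, 6 held a TATA box, 5 the SOX motif and 15 a CCAAT box. The short NFI motif was found in 3 of the 30 (Cbs, Daam2 and Fabp7) and in 1.57% of all genes, and in none of the 9. The median GC content was 57.3% in the promoters of the 9 genes, 60.2% in those of the other members and 52.7% in all. These matches describe letters in short windows and are not shown to be sites in use.

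Of the receptors, 2 of 5 were lower in each tissue, with medians of -1.11 in medulla and -0.996 in cord. Gpr37l1, a G protein-coupled receptor concentrated in astrocytes, was 202, 288, 335, 255 and 273 CPM in WT medulla and 126, 87.2, 51.0, 139 and 128 CPM in SCA7 medulla. The cord levels were 294, 289, 309, 198 and 377 CPM in WT mice and 130, 158, 106, 187 and 155 CPM in SCA7 mice. The groups were separate in both tissues, by a narrow margin in cord. Its changes were -1.28 ± 0.24 (edgeR adjusted p = 0.00519) and -0.996 ± 0.21 (adjusted p = 0.0119). Ntsr2, the low-affinity neurotensin receptor, changed by -1.26 ± 0.32 (edgeR adjusted p = 0.0306) and -1.77 ± 0.38 (adjusted p = 0.0118). Its WT and SCA7 libraries overlapped in medulla, at 32.9 to 138 CPM against 21.8 to 51.8 CPM, and were separate in cord, at 69.7 to 236 CPM against 6.26 to 57.0 CPM. Fgfr3, the fibroblast growth factor receptor of the astrocyte lineage, had changes of -0.60 and -0.51. Ednrb, the endothelin B receptor, had changes of -0.90 and -0.58, and Tril, an accessory protein of Toll-like receptors, had changes of -1.11 and -1.10. None of these 3 passed.

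Among channels, carriers and junction proteins 2 of 6 were lower in medulla and 1 of 6 in cord, with medians of -0.85 and -0.68. Ttyh1, a member of the tweety family of anion channels, was 547, 510, 490, 428 and 475 CPM in WT medulla and 285, 201, 218, 225 and 199 CPM in SCA7 medulla. Cord levels were 440, 578, 475, 447 and 482 CPM in WT mice and 322, 244, 225, 237 and 226 CPM in SCA7 mice. The groups were clearly apart in both tissues, with little spread within a group. The changes were -1.10 ± 0.18 (edgeR adjusted p = 0.00260) and -0.97 ± 0.20 (adjusted p = 0.0102). Slc14a1, a urea transporter, fell in medulla by 0.80 ± 0.20 on the log2 scale (edgeR adjusted p = 0.0260), at only 0.833 counts per shallow library on average, and had a change of -0.66 in cord (adjusted p = 0.39). Mlc1, a membrane protein of perivascular endfeet, had changes of -0.12 and -0.45. Slc39a12, a zinc importer, had changes of -0.49 and -0.26. Slc25a18, a mitochondrial glutamate carrier, had changes of -0.91 and -0.70, and Cldn10, a claudin, had changes of -0.999 and -1.15. None of these 4 passed the test in a tissue.

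Of the enzymes, 2 of 7 were lower in each tissue, with medians of -0.54 and -0.71. Aldoc, aldolase C of glycolysis, was 1658, 1458, 1616, 1563 and 1562 CPM in WT medulla and 1039, 1020.01, 787, 815 and 818 CPM in SCA7 medulla. In cord it was 2051, 1703, 1301, 1704 and 1515 CPM in WT mice and 860, 977, 877, 854 and 878 CPM in SCA7 mice. No libraries overlapped in either tissue, and the SCA7 medulla libraries fell into a higher pair (replicates 1 and 2) and a lower group of 3. Aldoc changed by -0.78 ± 0.18 (edgeR adjusted p = 0.0177) in medulla and -0.91 ± 0.20 (adjusted p = 0.0127) in cord. Entpd2, an ecto-ATPase of extracellular purine signalling, changed by -1.03 ± 0.24 (edgeR adjusted p = 0.0195) and -1.73 ± 0.48 (adjusted p = 0.0499), at averages of 0.333 and 1.67 counts per shallow library.

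Aldh1l1, the folate enzyme widely used as a pan-astrocyte marker, did not pass in either tissue. Its medulla levels were 25.3, 81.3, 16.3, 57.6 and 74.8 CPM in WT mice and 41.9, 47.0, 21.8, 48.2 and 43.5 CPM in SCA7 mice. In cord they were 82.5, 49.8, 33.4, 43.0 and 74.1 CPM in WT mice and 38.4, 21.6, 12.5, 49.6 and 47.3 CPM in SCA7 mice. The groups overlapped in both, and shallow libraries held only 2 to 7 counts of it. The changes were -0.46 ± 0.32 (edgeR adjusted p = 0.49) and -0.71 ± 0.32 (adjusted p = 0.26). In the deep libraries, with 1511 to 3099 counts each, both SCA7 mice were below both WT mice in each tissue. Pla2g7 (platelet-activating factor acetylhydrolase) had changes of -0.81 and -0.56, Prdx6 (a peroxiredoxin) -0.51 and -0.82, and Cbs (cystathionine beta-synthase) -0.54 and -0.71. Acsbg1, an acyl-CoA synthetase, had changes of -0.33 and -0.11, and none of these 4 passed.

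Of the transcription regulators, 0 of 4 were called in medulla (edgeR, with 2 at an unadjusted p under 0.05, 0 by DESeq2 and 2 by limma-voom) and 1 of 4 in cord, with medians of -0.52 and -0.88. Sox9, a driver of gliogenesis that mature astrocytes keep, was 25.3, 46.1, 16.3, 32.9 and 41.1 CPM in WT medulla and 0, 20.1, 21.8, 30.4 and 33.8 CPM in SCA7 medulla. In cord it was 58.6, 19.9, 0, 17.2 and 48.8 CPM in WT mice and 30.7, 7.19, 18.8, 31.5 and 39.4 CPM in SCA7 mice. The ranges overlapped in both tissues, and no shallow library held more than 4 counts. Its changes were -0.45 ± 0.36 (edgeR adjusted p = 0.56) and -0.38 ± 0.45 (adjusted p = 0.75), and the depth of the shallow libraries cannot show a change of this size. In the deep medulla libraries alone the change was -0.47 (edgeR adjusted p = 0.0218). Id2, Id3 and Id4 encode helix-loop-helix proteins without a DNA-binding region, which hold other factors in check downstream of BMP signals. Id3 fell in cord on the log2 scale (-1.504 ± 0.41, edgeR adjusted p = 0.0421). In medulla its fitted change was -0.60 (edgeR adjusted p = 0.11), while its mean CPM over libraries was 20.1 in WT and 25.1 in SCA7 mice, so the direction there depends on how libraries are weighted. Id2 had changes of -0.87 and -0.71 and Id4 of -0.30 and -1.05, without a call.

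**Figure D4:**
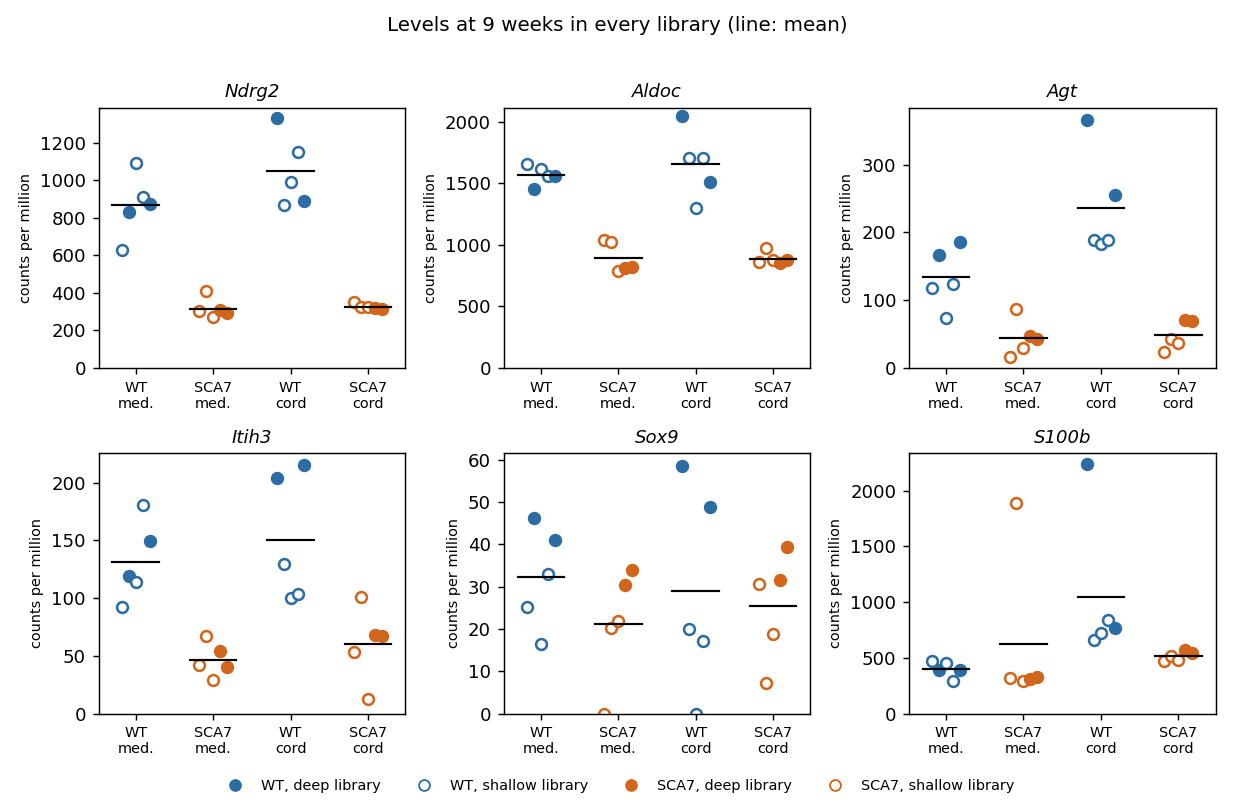
Levels in CPM (vertical axis) of Ndrg2, Aldoc, Agt, Itih3, Sox9 and S100b in every 9-week library by genotype and tissue (horizontal axis), with lines at the mean, blue for WT, orange for SCA7, filled for deep and open for shallow libraries. Ndrg2 and Aldoc were separate in both tissues, Sox9 overlapped, and S100b had 1 library far above the rest in SCA7 medulla (1892 CPM) and in WT cord (2236 CPM).

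No member's SCA7 change was called as different between cord and medulla (edgeR, mouse as a block, 0 of 35, with 4 at an unadjusted p under 0.05, where 2.36% of 19838 genes were called with a more negative change in cord and 0.418% with a less negative one). At an unadjusted p under 0.05, 2195 of all genes differed, and DESeq2 likewise called no member. The member differences, cord minus medulla, ran from -0.98 ± 0.44 for S100b (edgeR adjusted p = 0.39) to 0.43 ± 0.29 for Htra1 (adjusted p = 0.70), with a median of -0.09. Id3 (-0.71 ± 0.23, adjusted p = 0.14 by edgeR) and Btbd17 (-0.59 ± 0.25, adjusted p = 0.36) came next to S100b.

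The members are not equally specific to astrocytes. A group of 12 is also made by other cells of the nervous system, from vessels to oligodendrocyte precursors, and 3 of these 12 were lower in medulla and 1 in cord, with medians of -0.57 and -0.77. Of the other 23, 10 were lower in medulla and 9 in cord, with medians of -0.91 in each. All 23 had a change below 0 in both tissues. The difference between these 2 subsets was not tested.

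Other astrocyte genes moved the same way. Of 16 such genes, 11 were lower in medulla and 10 in cord, with medians of -1.26 and -1.39 and no gene higher. Most serve transmitter uptake, water and ion handling or lipid transport. Those called lower included Glul, glutamine synthetase (-1.45, edgeR adjusted p = 0.000415 in medulla, and -1.39, adjusted p = 0.00137 in cord). Gfap is also among the 16 and is counted again with the genes of the reactive state below. Of 18 factors and signalling genes of astrocyte fate, 0 passed in either tissue (edgeR, with 1 in medulla and 2 in cord at an unadjusted p under 0.05, none by DESeq2, and 1 lower and 1 higher by limma-voom in medulla), with medians of 0.06 and -0.17. Of 12 genes of the reactive state, edgeR called 2 lower in each tissue and none higher. They were Gfap (-1.07 and -2.28) and C3 (-1.31 and -2.05). In medulla DESeq2 gave an adjusted p to only 3 of the 12 and called 1 lower, while limma-voom called 3 lower and 3 higher. In cord both of these tools called 2 lower and none higher. The C3 call in medulla rests on low levels, with group means of 5.04 CPM (WT) and 2.65 CPM (SCA7).

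Markers of other cells changed too. Oligodendrocyte genes were lower in 9 of 15 cases in medulla and 14 of 15 in cord, with medians of -1.05 and -1.39. Precursor genes were lower in 2 of 8 in each tissue, microglial genes in 3 of 10 and 1 of 10, endothelial and mural genes in 0 of 10 and 1 of 10, and ependymal and choroid plexus genes in 2 of 9 and 0 of 9 by edgeR. At an unadjusted p under 0.05 there were 2 endothelial and mural genes in medulla and 2 ependymal genes in cord. In medulla and cord, DESeq2 called lower 1 and 1 precursor, 0 and 1 microglial, 0 and 1 endothelial and mural, and 0 and 0 ependymal genes. The limma-voom counts were 2 and 2, 5 and 3, 2 and 6, and 4 and 0 in the same order. Summed microglial markers did not overlap in medulla (219 to 280 CPM in WT and 114 to 188 CPM in SCA7 libraries). They overlapped in cord (169 to 491 and 93.9 to 230 CPM). Summed precursor markers did not overlap in cord (198 to 269 CPM in WT and 93.4 to 184 CPM in SCA7 libraries). In medulla they overlapped (163 to 270 and 141 to 204 CPM). None of the 12 neuronal genes passed in either tissue by edgeR (1 in medulla and 2 in cord at an unadjusted p under 0.05) or by DESeq2, with medians of -0.27 and 0.03, while limma-voom called 6 lower in medulla and 1 in cord. In cord all 8 meningeal fibroblast markers were lower (median -3.36), with summed levels of 120 to 1282 CPM in WT and 38.4 to 77.1 CPM in SCA7 libraries. In medulla 1 of 8 was higher, at 97.96 to 241 CPM in WT and 92.2 to 350 CPM in SCA7 libraries. Schwann markers were lower in 3 of 5 in cord (39.8 to 249.5 CPM against 43.1 to 55.5 CPM) and higher in 2 of 5 in medulla (32.9 to 311 CPM against 25.1 to 101 CPM). These meningeal and Schwann calls are those of edgeR. DESeq2 called 3 meningeal and 1 Schwann markers lower in cord and none in medulla. Limma-voom called 6 and 2 lower in cord, and 2 and 1 higher in medulla. No marker of these last 2 lists was at 0 in every library of a 9-week group. In at least 1 SCA7 cord library, though, 6 of 8 meningeal and 4 of 5 Schwann markers were at 0, beside 4 and 4 in WT cord. The lowest summed meningeal count was 5 in SCA7 cord and 12 in WT cord. The part of these 2 lists in the members' cord values was not tested.

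At 5 weeks the summed level of the members was again lower in each SCA7 library. In medulla it was 8833 and 9555 CPM in WT mice and 5681 and 5792 CPM in SCA7 mice, and in cord 11710 and 10830 CPM against 6638 and 8556 CPM. With 2 mice a genotype, only Sparcl1 in medulla and Agt in cord passed, 1 of 35 in each, where 0.0597% and 0.0699% of all genes tested were lower and 0.787% and 0.658% higher. The median change of the members was -0.79 in medulla and -0.71 in cord. The median of all genes was itself -0.54 and -0.29. The member count was 4 in medulla without WT replicate 1 (0.56% of all genes), 6 without WT replicate 2 (0.955%) and 0 without either SCA7 mouse (0% in each case). In cord it was 6 without WT replicate 1 (1.01%) and 0 without SCA7 replicate 1 (0%) or 2 (0.0175%). Both SCA7 libraries lay below both WT libraries for 23 of the 35 members in medulla, where 55.7% of all genes did so, and above them for 1, where 9.66% did. In cord 17 members lay below (17.9% of all genes) and 3 above (7.27%). Depth differed between the genotypes in both comparisons. In medulla some rarer members entered the test through the deep WT libraries alone. F3, for instance, held 1 count in each SCA7 library. Ependymal and choroid plexus markers summed to 838 CPM in WT replicate 2 and 2106 CPM in SCA7 replicate 2 of 5-week medulla, beside 50.9 and 61.7 CPM in the others.

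Agt was 177 and 183 CPM in WT medulla and 52.9 and 51.0 CPM in SCA7 medulla, a change of -1.66 ± 0.28 (edgeR adjusted p = 0.0563). In 5-week cord it was 322 and 275 CPM in WT mice and 51.9 and 59.0 CPM in SCA7 mice, a change of -2.27 ± 0.45 (edgeR adjusted p = 0.000187). The separation was wide in both tissues. Sparcl1 was 2361 and 2343 CPM in WT medulla and 1198 and 1155 CPM in SCA7 medulla, a change of -0.87 ± 0.14 (edgeR adjusted p = 0.0378). In cord it was 3011 and 2522 CPM against 1072 and 1742 CPM (-0.84, edgeR adjusted p = 0.94). The Sparcl1 call in medulla was lost without either SCA7 library, as was that of Agt in cord without either SCA7 library or WT replicate 2.

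Ndrg2 at 5 weeks was 932 and 824 CPM in WT medulla against 476 and 399 CPM, and 767 and 877 CPM in WT cord against 501 and 419 CPM. Ttyh1 was 480 and 489 CPM in WT medulla against 220 and 255 CPM, and 436 and 533 CPM in WT cord against 268 and 289 CPM. Aldoc was 1019 and 1352 CPM in WT medulla against 722 and 764 CPM, and 2102 and 1436 CPM in WT cord against 934 and 1009.7 CPM. These 3 genes were lower in both SCA7 mice of each tissue without passing the test. Itih3 was 120 and 118 CPM against 17.6 and 59.4 CPM in medulla and 189 and 167 CPM against 104 and 47.2 CPM in cord, likewise without overlap. Gpr37l1 was 229 and 251.4 CPM against 211 and 170 CPM in medulla and 341 and 332 CPM against 173 and 396 CPM in cord. Htra1 was 143 and 187 CPM against 88.1 and 76.4 CPM in medulla and 303 and 226 CPM against 121 and 260 CPM in cord. The last 2 genes overlapped in cord.

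S100b was 185 and 459 CPM in 5-week WT medulla against 361 and 280 CPM, and 947 and 700 CPM in WT cord against 1072 and 1116 CPM, where both SCA7 libraries were the higher ones. Its change in cord was 0.55 ± 0.41 (edgeR adjusted p = 0.94). Sox9, Aldh1l1 and Fabp7 were at 1 to 7 counts in each shallow 5-week library that held any, and Fabp7 was at 0 counts in WT cord replicate 1, so a change in them was not detectable at this depth. In the deep WT medulla libraries they were 28.8 and 33.1 CPM (Sox9), 78.1 and 69.3 CPM (Aldh1l1) and 27.8 and 27.05 CPM (Fabp7). The shallow SCA7 medulla libraries held 35.2 and 8.49 CPM of Sox9, 61.7 and 17.0 CPM of Aldh1l1 and 17.6 and 8.49 CPM of Fabp7. In cord the WT values were 9.47 and 36.8 CPM for Sox9, 47.3 and 75.8 CPM for Aldh1l1 and 0 and 28.0 CPM for Fabp7, against 17.3 and 5.90, 17.3 and 23.6, and 8.64 and 5.90 CPM in SCA7 mice. No order can be read from values of so few counts.

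No member had an SCA7 change that differed between 9 and 5 weeks in either tissue (edgeR, 0 of 35, with 0% of all genes called in either direction, and none by DESeq2). Of the members 1 in medulla and 4 in cord had an unadjusted p under 0.05. At an unadjusted p under 0.05, 1169 of 21133 genes differed in medulla and 1036 of 19880 in cord. The median of the member differences, 9 minus 5 weeks, was -0.09 in medulla and -0.16 in cord, beside 0.76 and 0.52 over all genes.

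In the libraries labelled P8 medulla the summed level was 9600 and 8334 CPM in WT mice and 8234 and 7979 CPM in SCA7 mice, both SCA7 sums being below both WT sums. No member passed (edgeR, 0 of 35, where 0% of all genes were called, and none by DESeq2), with 559 of 20564 genes, and 0 members, at an unadjusted p under 0.05. The median change of the members was -0.10, with 27 of 35 below 0, beside -0.05 over all genes, and the 35 changes spanned -0.48 to 0.36. Both SCA7 libraries lay below both WT libraries for 13 of the 35 members, where 33.5% of all genes did so, and above them for 1 (Cspg5), where 8.98% did. The 13 were S100b, Id2, Id3, Slc39a12, Ntsr2, Gpr37l1, F3, Pla2g7, Sparcl1, Slc14a1, Prdx6, Fabp7 and Daam2, a share near that of all genes. Meningeal markers summed to 230 and 1899 CPM in the WT and 296 and 1241 CPM in the SCA7 libraries.

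Ndrg2 there was 753 and 602 CPM in WT mice and 607 and 562 CPM in SCA7 mice, and Agt was 211 and 161 CPM against 167 and 116 CPM. Aldoc was 763 and 630 CPM against 689 and 795 CPM, and Ttyh1 was 647 and 529 CPM against 582 and 475 CPM. The genotypes overlapped for each of these 4 genes. Itih3 was 28.4 and 27.4 CPM against 25.9 and 38.8 CPM, Gpr37l1 267 and 196 CPM against 196 and 145 CPM, and Sparcl1 2403 and 2182 CPM against 2156 and 2133 CPM. Htra1 was 138 and 95.5 CPM against 108 and 136 CPM, and S100b 222 and 187 CPM against 151 and 126 CPM. Itih3 and Htra1 overlapped between the genotypes. Sox9 was 53.3 and 50.4 CPM against 53.2 and 9.69 CPM, the last of these from 1 count, Aldh1l1 157 and 120 CPM against 131 and 126 CPM, and Fabp7 463 and 402 CPM against 367 and 262 CPM.

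The libraries labelled P8 cervical held 1 WT mouse and could not be tested. The summed level was 6995 CPM in the WT library and 6900 and 6596 CPM in the SCA7 libraries. Ndrg2 was 531 CPM in the WT library against 500 and 532 CPM, Agt 121 CPM against 83.8 and 80.6 CPM, Aldoc 565 CPM against 578 and 411 CPM, and Ttyh1 572 CPM against 709 and 734 CPM. Agt was the lower in both SCA7 libraries and Ttyh1 the higher. Sparcl1 was 1622 CPM against 1635 and 1572 CPM, Gpr37l1 144 CPM against 138 and 113 CPM, Itih3 17.4 CPM against 11.97 and 16.1 CPM, and Htra1 78.9 CPM against 89.8 and 64.5 CPM. S100b was 95.1 CPM against 95.8 and 96.8 CPM, Sox9 44.1 CPM against 32.9 and 8.06 CPM, Aldh1l1 122 CPM against 92.8 and 145 CPM, and Fabp7 457 CPM against 386 and 435 CPM. Of these last genes, S100b lay at nearly the same level in each library, and the WT level of Aldh1l1 fell between those of the SCA7 libraries. Sox9 and Fabp7 were lower in both SCA7 libraries, with Sox9 at a single count in 1 of them. With 1 WT library, neither a difference nor its absence can be read from these values.

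**Figure D5:**
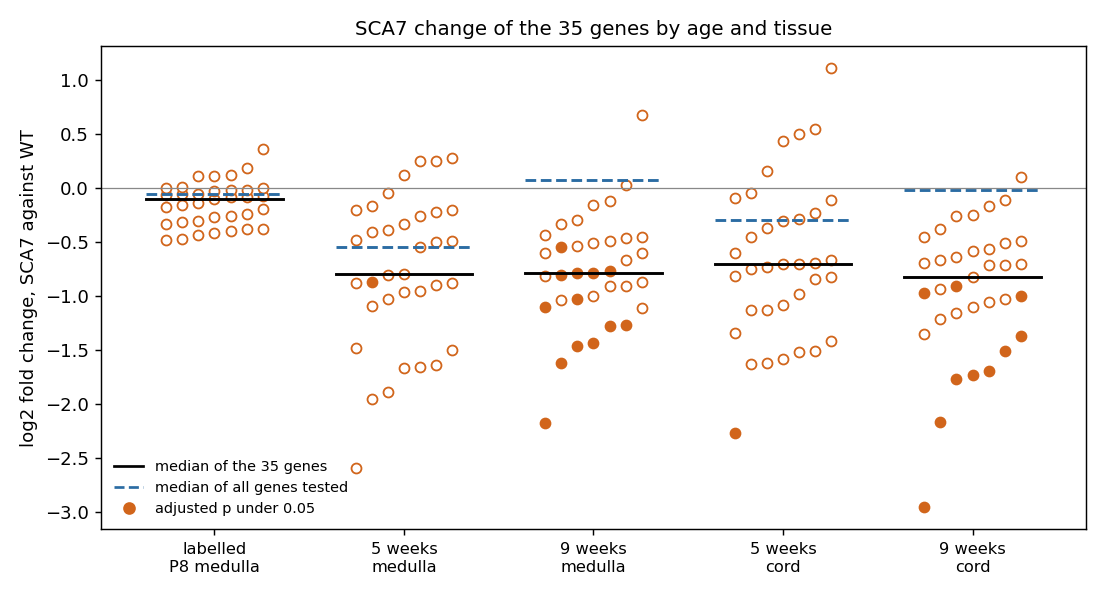
Log2 fold change of SCA7 against WT (vertical axis) of each of the 35 genes by age and tissue (horizontal axis), filled where the adjusted p was under 0.05, with solid lines at the median of the 35 genes and dashed lines at the median of all genes tested. The median of the members was -0.10 in the libraries labelled P8 medulla, and at 9 weeks it was -0.78 and -0.82 while that of all genes stayed near 0.

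The difference of the SCA7 change between 9 weeks and the libraries labelled P8 medulla was below 0 for 32 of 35 members, with a median of -0.67 beside 0.14 over all genes. No single member passed (edgeR, 0 of 35, where 0.00473% of 21133 genes were called lower and 0.0189% higher), and DESeq2 called 1. At an unadjusted p under 0.05 there were 11 members and 1781 of all genes. The most negative differences were those of Btbd17 (-2.17 ± 0.47, edgeR adjusted p = 0.12), Itih3 (-1.48 ± 0.41, adjusted p = 0.22) and Agt (-1.38 ± 0.46, adjusted p = 0.32). With the 9-week cord libraries in place of medulla the median was -0.59 and 1 member was called lower, where 0.0561% of all genes were lower and 0.0421% higher.

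In WT mice the members changed with age in both directions. Markers of other cells differed between the same libraries. Oligodendrocyte precursor markers summed to 1044 and 846 CPM in the WT libraries labelled P8 medulla and 163 to 270 CPM in 9-week WT medulla, and meningeal markers to 230 and 1899 CPM against 97.96 to 241 CPM. Their part in the age changes below was not tested. From the libraries labelled P8 medulla to 9-week medulla, 9 were lower and 5 higher, where 13.1% of 20797 genes were lower and 10.6% higher. Fabp7 fell most, by 4.07 ± 0.26 on the log2 scale (edgeR adjusted p = 3.22e-05), from 463 and 402 CPM to at most 29.5 CPM in any 9-week WT medulla library. Ednrb (-2.17 ± 0.20), Id3 (-1.66 ± 0.17), Cspg5 (-1.13 ± 0.18) and Slc14a1 (-1.09 ± 0.23) followed. Itih3 rose most, by 2.29 ± 0.23 (edgeR adjusted p = 0.000224), from 28.4 and 27.4 CPM to 92.6 CPM or more. Aldoc (1.25 ± 0.18), S100b (1.04 ± 0.21), F3 (0.93 ± 0.27) and Htra1 (0.83 ± 0.23) also rose. Against 9-week cord instead, 5 were lower and 4 higher, where 5.89% and 4.19% of all genes were. With either 9-week tissue, 5 were lower (Fabp7, Ednrb, Cspg5, Aldh1l1 and Tril) and 3 higher (Itih3, Aldoc and S100b). The count of 14 was 7 without 9-week WT replicate 5, where 10.4% of all genes were called in either direction, and 9 without WT replicate 2 of the libraries labelled P8 (16.9%).

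In SCA7 mice the same age step gave 11 members lower and none higher, where 8.22% of 19213 genes were lower and 10.2% higher. Precursor markers summed to 811 and 659 CPM in these P8 libraries and 141 to 204 CPM at 9 weeks, and meningeal markers to 296 and 1241 CPM against 92.2 to 350 CPM. The falls were led by Fabp7 (-4.63 ± 0.50), Ednrb (-3.0 ± 0.35), Btbd17 (-2.49 ± 0.61), Entpd2 (-2.02 ± 0.25) and Tril (-1.88 ± 0.46). Against 9-week cord 12 were lower, all of these 11 among them, and 1 higher, where 8.67% and 9.82% of all genes were. Itih3 and Aldoc, which rose with age in WT mice, had changes of 0.71 ± 0.44 (edgeR adjusted p = 0.32) and 0.29 ± 0.31 (adjusted p = 0.60) in SCA7 mice, and the difference between genotypes was not called for either (edgeR adjusted p = 0.22 and 0.28). The count depended on single libraries and was 23 without 9-week SCA7 replicate 2, where 30.8% of all genes were called in either direction. It was 7 without 9-week SCA7 replicate 4 (8.21%), 5 without replicate 5 (6.66%) and 0 without SCA7 replicate 1 of the libraries labelled P8 (0.118%).

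From the SCA7 libraries labelled P8 cervical to 9-week SCA7 cord, 7 members were lower and 4 higher, where 3.48% of 18613 genes were lower and 2.64% higher. Ependymal and choroid plexus markers summed to 763 and 6427 CPM in these P8 libraries and 31.4 to 61.4 CPM in 9-week SCA7 cord. Precursor markers summed to 602 and 693.5 CPM against 93.4 to 184 CPM, and meningeal markers to 338 and 508 CPM against 38.4 to 77.1 CPM. Fabp7 (-4.80 ± 0.34), Ednrb (-2.88 ± 0.24), Btbd17 (-2.72 ± 0.64), Mfge8 (-2.25 ± 0.47) and Cspg5 (-1.68 ± 0.32) were the largest falls. Daam2 (3.38 ± 0.60), S100b (2.43 ± 0.25), Acsbg1 (1.25 ± 0.30) and Aldoc (0.83 ± 0.23) rose. Daam2 was at 15.0 and 8.06 CPM in those P8 libraries and at 68.9 to 187 CPM in 9-week SCA7 cord. The P8 values are 5 counts and 1 count in shallow libraries, so the size of this rise is uncertain. The deep WT library labelled P8 cervical held 53.0 CPM. Against 9-week medulla instead, 5 were lower and 1 higher, where 1.49% and 0.701% of all genes were. With either 9-week tissue, 5 were lower (Fabp7, Ednrb, Mfge8, Cspg5 and Ttyh1) and 1 higher (Daam2). In place of 11 calls there were 4 without replicate 1 of these P8 libraries, where 1.07% of all genes were called in either direction, and 6 without replicate 2 (2.51%).

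Between the WT tissues at 9 weeks S100b was the member with a called difference. It was higher in cord by 1.24 ± 0.24 on the log2 scale (edgeR adjusted p = 2.40e-05, mouse as a block), at 657 to 2236 CPM in cord and 296 to 471 CPM in medulla, and it was higher in the cord of all 5 mice. Of the 35, 1 was called, where 2.31% of 18969 genes were higher and 1.65% lower in cord. The other members had differences from -0.42 for F3 to 1.07 for Id4 (edgeR adjusted p = 0.0604), with a median over all 35 of 0.19. Without the mouse WT replicate 2, 4 members were called, where 3.77% of all genes were called in either direction. Per kilobase of exon, Sparcl1, Aldoc, Sparc, S100b and Ndrg2 were the 5 most abundant members in both tissues, and S100b had 271 CPM per kilobase in medulla and 705 in cord.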

How the data were processed

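RNA-seq libraries of medulla and cervical spinal cord were compared by genotype, age and tissue, with samples grouped by the labels. Per the labels and the study's methods, the authors extracted total RNA with a Qiagen miRNeasy kit, mapped reads to the mouse genome (mm10), kept uniquely mapped reads and deposited raw read counts per gene symbol, 1 table a library. The aligner and the counter are not given in the sources used here. Reads of overlapping genes cannot be told apart where strand was not used.

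Each comparison had its own quasi-likelihood fit of the counts in edgeR 4.0.16 (R 4.3.3, TMM factors), run on genes that reached 10 counts in 1 library or more, and p-values were adjusted by Benjamini-Hochberg over all genes tested, with a threshold of 0.05, two-sided. Mouse was a block in comparisons of tissues. Levels are CPM on TMM factors over all 35 libraries. A library of over 1000000 counts was called deep. A limit of 3 counts marks what a count of 0 allows, and limits cover counting error only. Alternatives used DESeq2 1.42.0, limma 3.58.1 (voom), other scalings, filters, depth, a replicate block and each library left out. The scripts were tested on simulated data.

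The members and lists were chosen with earlier results of these data known. Values in every 9-week library are given for members whose genotypes did not overlap in a tissue at a mean of at least 10 counts in its shallow libraries, and for Aldh1l1, Aldoc, S100b and Sox9. Agt is given in full under that rule in cord. In comparisons of age and tissue the 5 largest called changes in each direction are named. The regional genes were picked once their values were known, as were the fits of P8 against the other 9-week tissue. P-values measure the spread between mice, of which the P8 and 5-week groups have at most 2.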

Additional observations from a re-analysis of the deposited data

Results flagged for a closer look

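In 9 of 48 groups of 5 libraries tested (the named genes and the summed level at 9 weeks), the highest or lowest library lay apart from the others by more than Dixon's 95% limit (a ratio of 0.71). For normal values of equal spread, about 1 group in 20 would pass this limit by chance. Here deep and shallow libraries differ in counting error, the groups share libraries, and most genes were named by their genotype separation. That rate is therefore only a rough guide. In medulla SCA7 replicate 2, the library with 59% mitochondrial counts, S100b was 1892 CPM (the other 4 libraries 291 to 328 CPM), Ndrg2 409.3 CPM (269.5 to 309 CPM) and Sparcl1 812 CPM (1458 to 1615 CPM). Cord WT replicate 1 held 2236 CPM of S100b, beside 657 to 843 CPM in the others. In cord SCA7 replicate 1, Ndrg2 was 353.1 CPM (314 to 326 CPM in the others) and Ttyh1 322.4 CPM (225 to 244 CPM), and both stayed below every WT cord library. Aldoc in cord SCA7 replicate 2 was 977.3 CPM, beside 854 to 878 CPM. Htra1 in medulla WT replicate 3 was 277.5 CPM, beside 173 to 195 CPM, and Aldh1l1 in medulla SCA7 replicate 3 was 21.85 CPM, from 3 counts, beside 41.9 to 48.2 CPM.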

How the results depend on the processing

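Depth limits what these data show, since 20 of the 35 libraries hold at most 396417 counts. Counts of called members moved with the fit, while the direction of the median at 9 weeks did not. For 9-week medulla, where 13 members were lower, the count was 7 with DESeq2, 4 with library totals, 3 with at least 10 counts in every library, 3 with the bias-adjusted test, 7 with the replicate block, 30 with depth as a covariate, 30 with limma-voom, 32 in deep libraries alone (where S100b was -0.33, the one reversal) and 0 of 21 in shallow libraries alone, and it ran from 5 to 23 with a library left out. For 9-week cord, where 10 were lower, it was 3 with library totals (median -0.49), 4 with at least 10 counts in every library, 17 with depth as a covariate, 0 in deep and 2 in shallow libraries alone, and 4 to 13 with a library left out, while DESeq2 gave 9 and the replicate block 11. The replicate numbers of WT and SCA7 mice share only a number (correlations of deviations from -0.755 to 0.909 by depth).

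For 5-week medulla, where 1 was lower, it was 5 with DESeq2, 0 with its size factors, 3 with library totals, 3 with at least 10 counts in every library (median -0.26), 5 with no filter, 0 with the bias-adjusted test, 11 with the replicate block and 0 to 6 with a library left out. For 5-week cord it was 0 with DESeq2, with at least 10 counts in every library (median -0.27) and with the bias-adjusted test, the median was -0.96 with library totals, and the count was 0 to 6 with a library left out. In the libraries labelled P8 medulla no fit called a member, and the median ran from -0.26 to 0.03 with a library left out. The tissue difference had a median of 0.18 with library totals, 2 calls with depth as a covariate and 0 to 1 with a mouse left out (1 without WT replicate 2). The difference between 9 and 5 weeks in cord had a median of 0.34 with library totals and -0.54 with at least 10 counts in every library. That between 9 weeks and P8 had 1 call with DESeq2 and 1 with the other 9-week tissue, a median of -0.14 with at least 10 counts in every library, and 0 to 1 calls (medians -0.67 to -0.32) with a library left out (1 without 9-week SCA7 replicate 2 or P8 WT replicate 1). Between WT tissues the count of 1 became 0 with at least 10 counts in every library, 3 with depth as a covariate, 10 with limma-voom and 1 to 4 with a mouse left out. For 9 weeks against P8 in WT, 14 became 6 with at least 10 counts in every library, 8 with the bias-adjusted test, 9 with the other tissue and 7 to 16 with a library left out. In SCA7 medulla 11 became 6 with library totals, 3 with at least 10 counts in every library, 5 with the bias-adjusted test, 3 with the replicate block and 0 to 23 with a library left out. In SCA7 cord 11 became 5 with at least 10 counts in every library, 6 with the other tissue and 4 to 15 with a library left out. The cause was not tested in any of these.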
